A study of Arabidopsis thaliana with 48 samples.

Results

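The plasma membrane intrinsic proteins (PIPs) are the water channels of the plant cell surface. The genes described here are 10 of the 32833 genes in the table, taken as a named list of the family, with no threshold on their values: PIP1;1 (AT3G61430), PIP1;2 (AT2G45960), PIP1;3 (AT1G01620), PIP1;4 (AT4G00430), PIP1;5 (AT4G23400), PIP2;1 (AT3G53420), PIP2;2 (AT2G37170), PIP2;4 (AT5G60660), PIP2;7 (AT4G35100) and PIP2;8 (AT2G16850). All 10 passed the minimum mean of 10 normalised counts, and the lowest count of reads for any of them in any library was 129. RNA was measured in whole wild-type Arabidopsis thaliana seedlings of the accession Col-0, in 16 groups of 3 libraries. Seedlings germinated and grew on plates with plain medium (the control, CT), with 50 mM NaCl (Salt), with 0.05 µM of the herbicide paraquat (PQ), or with both. At 10 days they stayed at 21 °C and 50 µmol of photons per m2 and s, or were moved for 1.5 h to high light of 700 µmol per m2 and s (HL), to heat of 33 °C (HS), or to both, which gives CT, 4 single stresses and 11 combinations. Each library came from pooled seedlings, so a value is an average over many plants and over all organs, and in such a mixture fewer cells of a type and less RNA per cell cannot be told apart.

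Aquaporins let water cross membranes along its gradient, and PIPs carry much of the water that passes from cell to cell in roots and leaves. The family has a PIP1 and a PIP2 branch. PIP2 proteins form active water channels by themselves in frog oocytes, whereas PIP1 proteins usually reach the plasma membrane in tetramers with PIP2 partners. Channels are gated by phosphorylation, protons and calcium and are moved between the surface and internal membranes, so transcript level is only a part of their control. Paraquat produces superoxide in chloroplasts in the light, and some PIPs are known to pass hydrogen peroxide as well as water.

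Each PIP folds around a pore in which 2 short loops with the residues Asn-Pro-Ala (NPA) meet. The stretch that encodes the second loop lies within 1 exon and is shown for 5 genes, because genes that moved in opposite directions in these libraries carry the same pore motif. The sequences are from the RefSeq annotation of TAIR10.1, 5′ to 3′ on the coding strand, and the capitals mark the codons for Asn, Pro and Ala. They are the main PIP1 transcript of the control, the PIP1 gene that stood apart, the main PIP2 transcript of the control, the gene with the largest rise from CT under the HS label, and the gene that was lower under most labels.
PIP1;2 (chr2:18911445-18911480, plus strand): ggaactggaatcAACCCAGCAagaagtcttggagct
PIP1;5 (chr4:12221852-12221887, plus strand): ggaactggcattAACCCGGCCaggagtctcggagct
PIP2;1 (chr3:19804155-19804190, minus strand): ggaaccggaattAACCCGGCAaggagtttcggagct
PIP2;7 (chr4:16709671-16709706, plus strand): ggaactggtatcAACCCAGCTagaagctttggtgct
PIP2;8 (chr2:7302891-7302926, plus strand): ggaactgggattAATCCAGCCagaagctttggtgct
The 10 genes encode proteins of 278 to 291 residues in 4 coding exons each. Their coding sequences were 79.8 to 87.6% identical within the PIP1 branch, 72.6 to 86.4% within the PIP2 branch and 71.4 to 75.9% between the branches. Reads can therefore be assigned to a gene as a rule: for 9 of the 10, every stretch of 50 bases in the exons was found in no other PIP gene. The exception is PIP2;2, of which 85.3% of stretches were unique, and all of the 169 shared stretches were shared with its neighbour on chromosome 2, PIP2;3 (AT2G37180).

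The libraries held 67888254 to 87569857 reads on genes, and the deposited values are those reads divided by 1 size factor per library (0.594 to 1.34), called normalised counts below. The coefficient of variation between replicates was 1.59 to 4.47% in the control for the 10 genes. Over the 16 groups its median was 2.07 to 4.70% for 9 of them, with no group above 9.69%, while for PIP2;4 the median was 7.21% and the highest value 19.8%, under HL+HS. Before the results, the labels were set against genes known for each stress, and they did not match in every group. The heat-induced chaperone gene HSP101 was at 1055, 1133 and 1106 normalised counts in CT. It was at 1953635 to 2003382 in the libraries labelled HL+HS, and at 1278552 to 1858204 in those labelled PQ+HS, Salt+PQ+HS and Salt+HL+HS. It was at only 17625 to 18178 under the label HS and 49637 to 50165 under Salt+HS, but at 151242 to 159545 under PQ and 67816 to 75515 under HL, which name no heat. Under PQ+HL+HS and with all 4 stresses, which name heat, it was at 1046 to 1227, as in the control. The light-induced gene ELIP1 likewise ran at 25653 to 29410 under PQ, without a high light label, and at 798 to 1018 under Salt+HL and PQ+HL, with one. The salt- and drought-induced gene RD29A was at 31496 to 33645 under Salt and 7738 to 8060 in CT, but at 33851 to 36597 under PQ and 30138 to 30662 under HL, which name no salt, and at 4998 to 5593 under Salt+HL, which does. Over the whole list of 6 heat genes, of which none was at 0 in any group, the summed level ranged from 2596 to 3275 in the libraries labelled Salt+PQ+HL, PQ+HL+HS and with all 4 stresses, against 2693 to 2958 in CT, and from 3362922 to 4870692 in the 4 combinations with the most HSP101. Group names in what follows are therefore the labels and no more, and no library was moved to another group. The 8 root genes and 7 leaf genes used as organ markers were all detected in each group, with root sums of 52954 to 53620 under HL+HS, 185593 to 196503 in CT and 262850 to 270860 under PQ+HL+HS. Such sums follow their most abundant genes, and single root genes differed in direction. EXPA7 was at 221 to 251 in CT and at 315 to 527 under HL+HS. COBL9 was at 188 to 240 in CT and at 42.8 to 59.0 under HL+HS. The part of these organ and heat genes in the PIP results was not tested.

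In the control, levels per kilobase of exon put PIP1;2 first at 51530 ± 1376 (SD, n = 3), followed by PIP2;1 at 40491 ± 1030, PIP2;7 at 25502 ± 1141, PIP1;3 at 17172 ± 405 and PIP1;1 at 14616 ± 257. PIP2;2, PIP1;5 and PIP1;4 formed the next tier at 9300 ± 339, 9112 ± 258 and 8687 ± 340 per kilobase, and these 3 neighbours did not differ beyond their spread. PIP2;8 at 819 ± 28.1 and PIP2;4 at 431 ± 6.86 per kilobase were far below the rest.

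**Figure D1:**
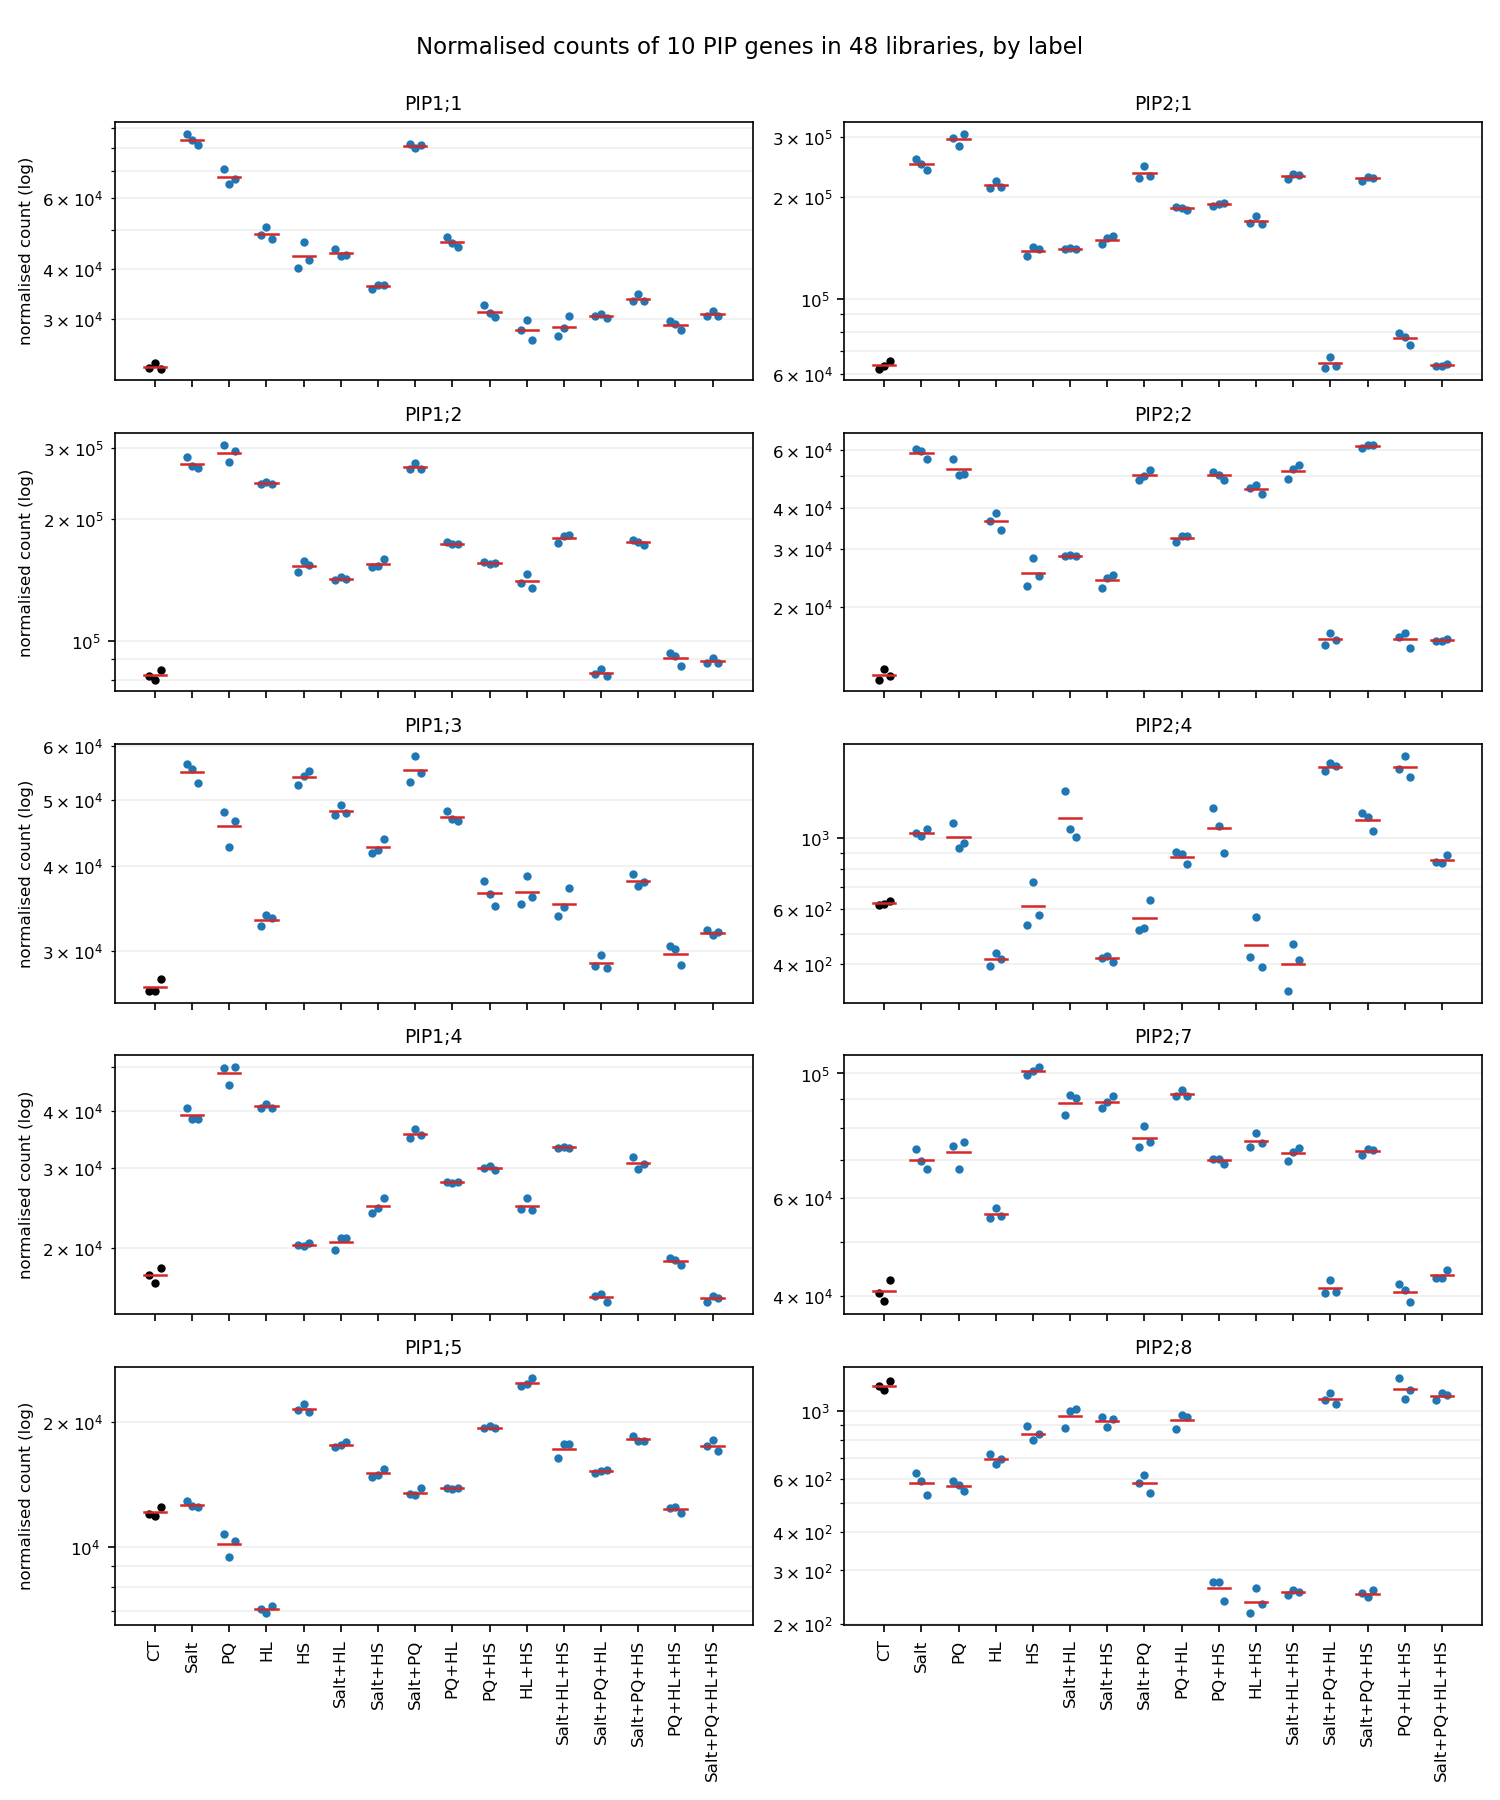
Normalised counts of the 10 PIP genes in all 48 libraries, 1 panel per gene, on a log vertical axis. Dots are libraries, black for the control and blue for the labelled treatments, and red lines are means of 3. Most genes sit above the control nearly everywhere and close to it under Salt+PQ+HL, under PQ+HL+HS and with all 4 stresses, whereas PIP2;8 in the last panel sits below it or beside it.

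The comparison of the 15 labelled treatments with the control asks how the family responds to each stress and combination. PIP transcripts were mostly higher. Of the 150 pairs of a gene and a treatment, 118 (78.7%) were called higher, 20 (13.3%) were called lower and 12 were not called, by limma with Benjamini-Hochberg adjustment over 21536 genes at an adjusted p under 0.05. Over all tested genes, 35.1% of such pairs were called higher and 34.4% lower. All treatments share the same 3 control libraries. These are changes on the scale of log2(normalised count + 1).

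With single stresses more of the 10 were called higher, and fewer lower, than among all genes. Under Salt 8 of the 10 were higher and 1 was lower, while 40.5% of all tested genes were called higher and 39.1% lower. Under PQ 8 were higher and 2 lower, with 40.2% and 39% of all genes. Under HL 7 were higher and 3 lower, with 38.5% and 37.5%. Under HS 8 were higher and 1 lower, with 37.2% and 34.2%. The median change of the 10 was 1.11, 1.15, 0.78 and 0.91 on the log2 scale in these groups, while the median over all genes was within 0.015 of 0 in each of the 15 comparisons.

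Pairs of stresses, and the triples Salt+PQ+HS and Salt+HL+HS, gave similar counts. Salt+PQ had 8 genes higher and 1 lower (40.2% and 38.5% of all genes), Salt+HL 9 and 1 (35.8% and 33.5%), PQ+HL 9 and 1 (35.9% and 34.4%) and Salt+HS 8 and 2 (35.6% and 33.9%). PQ+HS had 9 higher and 1 lower (42.1% and 42.1%), HL+HS 8 and 2 (42.7% and 43.2%), Salt+PQ+HS 9 and 1 (42.2% and 42.4%) and Salt+HL+HS 8 and 2 (42.9% and 43%). These last 4 counts depend on the scaling. When libraries were instead brought to equal totals, which moved the median of all genes by as much as -0.87, the genes called higher were 5 under PQ+HS, 3 under HL+HS, 3 under Salt+PQ+HS and 4 under Salt+HL+HS, and 3, 6, 4 and 5 were lower. Of all 21536 genes, 4048, 3106, 3381 and 3173 were then called higher in these 4 comparisons, and 15453, 16951, 16399 and 16801 lower. As a share of the calls over all genes, 20.8, 15.5, 17.1 and 15.9% were higher, where the size factors gave 50.0, 49.7, 49.9 and 49.9%. In the single stresses that share was 37.0% (Salt), 30.6% (PQ), 33.5% (HL) and 42.0% (HS) with equal totals, beside 50.9, 50.7, 50.6 and 52.1%.

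The remaining 3 combinations, those with heat genes at the control level, held the smallest responses. Under Salt+PQ+HL 5 genes were higher and 1 lower (19.6% and 20.9% of all genes), with a median change of 0.07. Under PQ+HL+HS 7 were higher and none lower (9.65% and 10.1%), with a median of 0.15. Under all 4 stresses together 7 were higher and 1 lower (23.3% and 23.6%), with a median of 0.19.

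**Figure D2:**
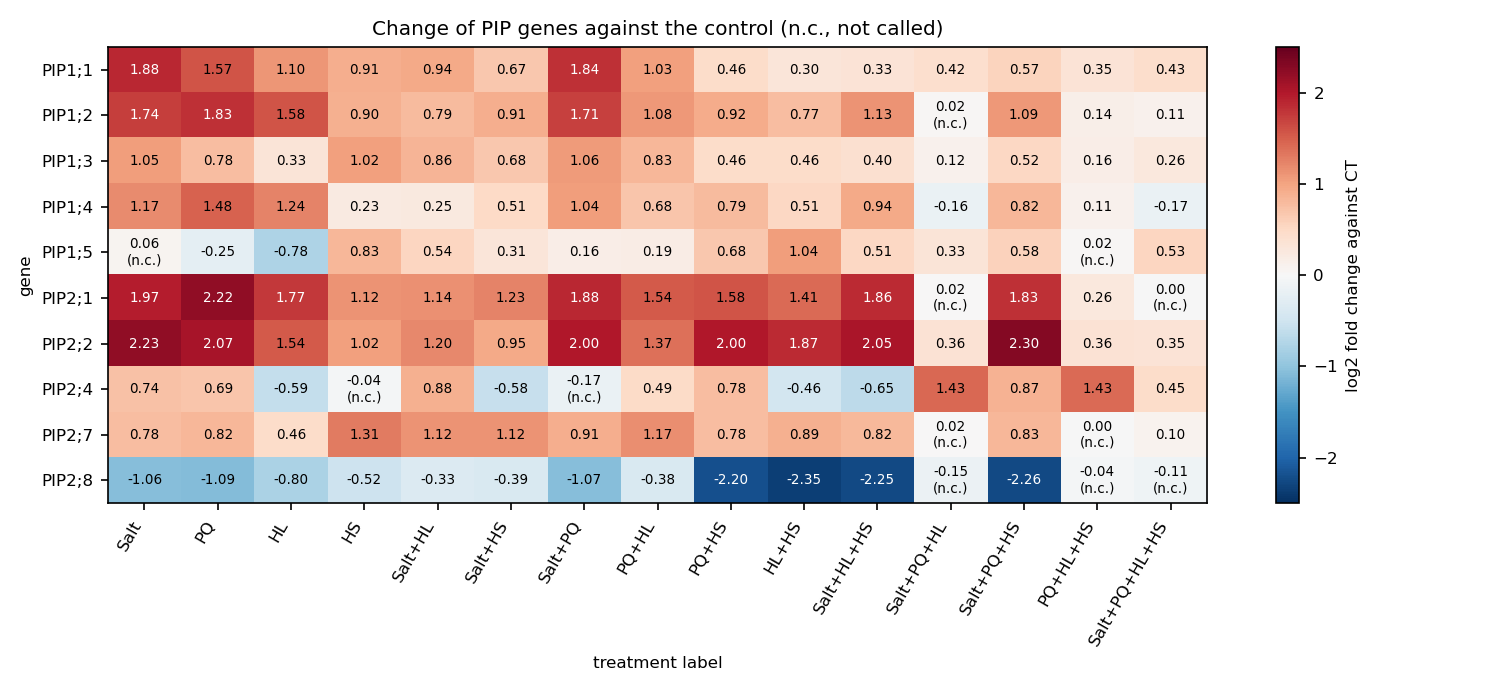
Log2 fold change against the control for each gene (rows) under each treatment label (columns), red for higher and blue for lower, with n.c. where limma made no call. PIP2;1 and PIP2;2 reach 2.22 and 2.30, PIP2;8 reaches -2.35 under HL+HS, and the columns of Salt+PQ+HL, of PQ+HL+HS and of all 4 stresses are pale apart from PIP2;4 at 1.43 in the first 2 of them.

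PIP2;1 is a major water channel of root and leaf cells and had, with PIP2;2, the largest rises of the 10. It was at 62217, 63434 and 65426 normalised counts in CT. It was at 258120, 249805 and 240561 under Salt, a 3.92-fold difference (log2 1.97 ± 0.035, SE, limma adjusted p = 4.6e-39). Under PQ it was at 298673, 282695 and 307066, its highest group, 4.65-fold above CT (log2 2.22 ± 0.035). Under HL it was at 213004, 222615 and 214099 (1.77 ± 0.035), and under HS at 133505, 142668 and 139990 (1.12 ± 0.035), so the groups did not overlap with CT in any single stress. It stayed at 1.14 to 1.88 on the log2 scale in the 8 pairs and triples outside the 3 combinations with little response. In those it was at 62401 to 67415 under Salt+PQ+HL (adjusted p = 0.76 by limma) and at 63230 to 64127 under all 4 stresses (adjusted p = 0.96), where its libraries overlapped with CT. Under PQ+HL+HS it was at 73227 to 79199, slightly higher (0.26 ± 0.035).

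PIP2;2, the close relative of PIP2;1, was called higher under all 15 labels and did not change direction with any scaling tried. Its control libraries were at 12087, 12993 and 12446 normalised counts. With the size factors its highest group was Salt+PQ+HS, at 60619, 61769 and 61974 (4.91-fold, log2 2.30 ± 0.049, limma adjusted p = 1.7e-36). Salt alone followed at 60376, 59249 and 55994 (2.23 ± 0.049), just below it without overlap. Under HS it was at 23275, 28107 and 24870 (1.02 ± 0.049). Its smallest differences were 0.35 to 0.36 in the 3 combinations with little response. In the 4 combinations with the most HSP101 its changes were 1.87 to 2.30, beside 2.23 under Salt and 2.07 under PQ. With equal library totals the median of all genes was -0.66 to -0.87 in these 4, beside -0.19 under Salt and -0.29 under PQ. The order of these groups for PIP2;2 therefore rests on the scaling.

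Because PIP2;2 shares sequence with PIP2;3, the pair was looked at together. PIP2;3, known as the desiccation-responsive gene RD28, is not 1 of the 10. The genes lie next to each other on opposite strands, chr2:15613368-15615022 (PIP2;2, minus) and chr2:15617635-15619155 (plus) in TAIR10.1. Their coding sequences were 94.8% identical (813 of 858 bases), with 1 identical run of 242 bases. Over all exons 85.3% of the stretches of 50 bases in PIP2;2 and 83.5% in PIP2;3 were unique. The 90-base windows below, each within 1 exon, hold the most differences, 12, which are in capitals. They are shown because reads from the coding sequences can be told apart only by such bases.
PIP2;2 (chr2:15614179-15614268, minus strand): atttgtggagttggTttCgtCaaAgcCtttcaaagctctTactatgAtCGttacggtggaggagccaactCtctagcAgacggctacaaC
PIP2;3 (chr2:15618302-15618391, plus strand): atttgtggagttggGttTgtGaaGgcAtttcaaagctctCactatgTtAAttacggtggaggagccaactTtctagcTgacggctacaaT
The neighbour changed far more than any of the 10. It was at 2472, 2688 and 2470 normalised counts in CT and at 53351, 55876 and 58799 under Salt+HL+HS, 22.0-fold higher (log2 4.46 ± 0.055, limma adjusted p = 7.4e-46). The size of that rise depends on the size factors, since with equal library totals the median of all genes was -0.84 under Salt+HL+HS. The single stresses gave 3.97 (Salt), 4.23 (PQ), 3.73 (HL) and 2.13 (HS). The ratio of PIP2;2 to PIP2;3 within a library, which does not depend on scaling, was 4.92 ± 0.11 (SD, n = 3) in CT, 1.47 ± 0.023 under Salt, 1.10 ± 0.038 under PQ, 0.923 ± 0.011 under Salt+HL+HS and 6.13 ± 0.12 under all 4 stresses. The alignment let reads map to several places, and how such reads were counted is not given in the sources used here, so part of the level of either gene may belong to the other.

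**Figure D3:**
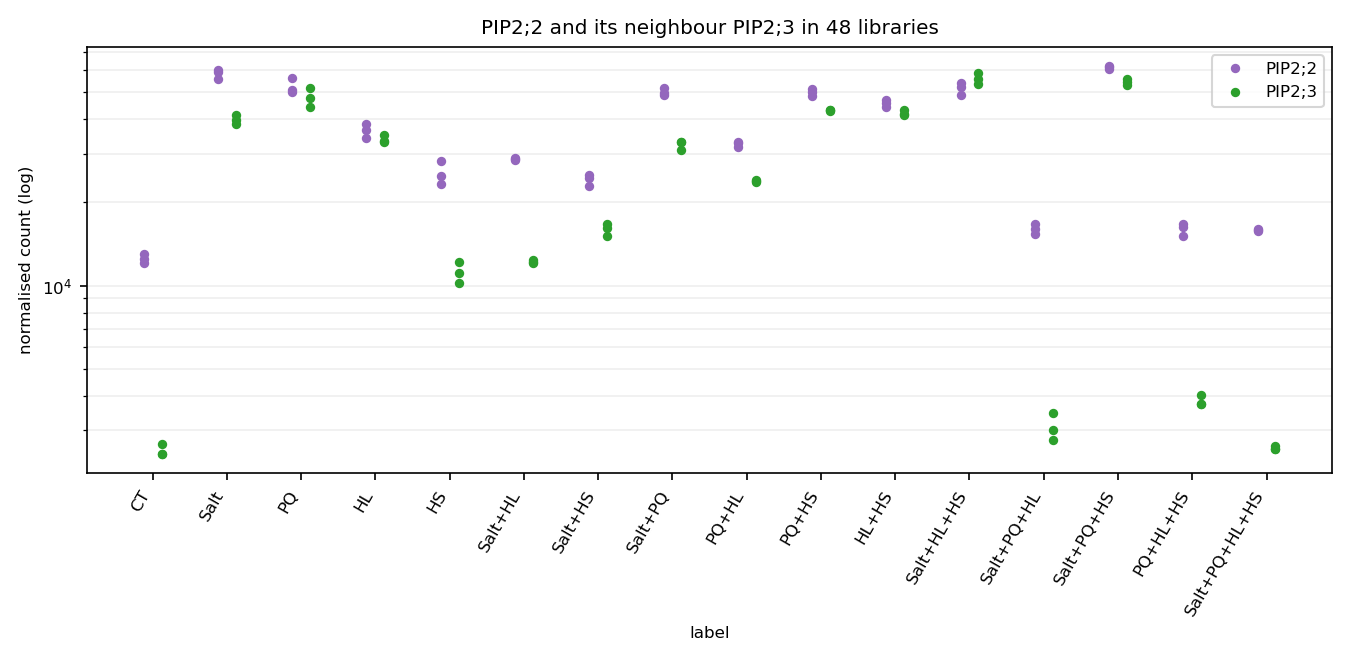
Normalised counts (log axis) of PIP2;2 (purple) and its neighbour PIP2;3 (green) in the 48 libraries, by label. The genes lie well apart in CT, at 12087 to 12993 against 2470 to 2688, and meet under labels such as PQ, HL and Salt+HL+HS.

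PIP2;7, which passes water when made in frog oocytes, had a different order of groups from PIP2;1. It was at 40601, 39207 and 42831 normalised counts in CT and was highest under HS, at 99565, 101205 and 102618 (2.48-fold, log2 1.31 ± 0.038, limma adjusted p = 1.2e-30). It was at 55097 to 57550 under HL (0.46 ± 0.038), its lowest single stress, although quantile normalization turned that value to -0.06. In the 4 combinations with the most HSP101 it was at 69008 to 78322 normalised counts, called higher by 0.78 to 0.89 with the size factors, while quantile normalization turned these to -0.19 to -0.34. It was not called under Salt+PQ+HL or PQ+HL+HS, and the call under all 4 stresses (0.10, adjusted p = 0.035 by limma) was lost without CT replicate 1, CT replicate 2 or treatment replicate 3, at adjusted p = 0.083, 0.21 and 0.16. That call was also lost by limma with no filter on low genes (adjusted p = 0.053) and with quantile normalization (0.03, adjusted p = 0.49).

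The 250 bases before the start of each gene were searched on both strands for 4 short motifs: GAANNTTC and TTCNNGAA, the core of heat shock elements, ACGTG, the core of abscisic acid response elements, and CCGAC, the core of dehydration response elements. Among the 10 genes PIP2;7 held the only GAANNTTC, at -31, and PIP1;3 the only CCGAC, at -134. None held TTCNNGAA or ACGTG. Of 27443 Arabidopsis promoters of the same length 9.55%, 7.68%, 22.9% and 12% hold the 4 motifs in the order given, and a match is a description of these letters only. The PIP2;7 promoter, of the gene with the largest log2 change of the 10 under HS, is shown with its match in capitals.
PIP2;7 (chr4:16708111-16708360, plus strand): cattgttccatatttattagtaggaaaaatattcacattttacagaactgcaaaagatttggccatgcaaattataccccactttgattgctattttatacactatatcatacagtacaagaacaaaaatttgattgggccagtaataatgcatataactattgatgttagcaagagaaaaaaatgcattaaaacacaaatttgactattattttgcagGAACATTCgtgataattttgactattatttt

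The PIP1 branch supplied the most abundant transcript of the control, PIP1;2. It was at 82127, 80183 and 84569 normalised counts in CT, and at 305474, 276348 and 295638 under PQ, its highest group (3.55-fold, log2 1.83 ± 0.034, limma adjusted p = 1.2e-38). Salt gave 285090, 270531 and 267422 (1.74 ± 0.034), HL 244627 to 247344 (1.58 ± 0.034) and HS 147977 to 157374 (0.90 ± 0.034). None of these groups overlapped with CT. Under Salt+PQ+HL it was at 81779 to 85447 and was not called (adjusted p = 0.69).

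PIP1;1, a PIP1 of roots and shoots, responded most to Salt. Its control libraries were at 22523, 23204 and 22502 normalised counts and its Salt libraries at 86863, 83566 and 81507 (3.69-fold, log2 1.88 ± 0.041, limma adjusted p = 7.3e-36). Salt+PQ overlapped with Salt, at 80255 to 81810, and PQ was lower at 65145 to 70929. It was called higher under all 15 labels, but the 0.30 to 0.57 in the 4 combinations with the most HSP101 turned to -0.19 to -0.56 when libraries were scaled to the same total.

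PIP1;4 and PIP1;3 were both called higher under all 4 single stresses and differed in which of these raised them most. PIP1;4 was at 17382, 16679 and 18036 normalised counts in CT and at 49886, 45780 and 50082 under PQ (log2 1.48 ± 0.032), but only at 20199 to 20479 under HS (0.23 ± 0.032). PIP1;3 was at 26228, 26247 and 27324 in CT, at 52619, 54206 and 55079 under HS (1.02 ± 0.038) and at 52953 to 56456 under Salt (1.05 ± 0.038), but only at 32652 to 33872 under HL (0.33 ± 0.038). All 5 differences were called by limma, and the last turned to -0.02 with quantile normalization. PIP1;4 was also the only member called lower in any of the 3 combinations with little response, at -0.16 ± 0.032 under Salt+PQ+HL and -0.17 ± 0.032 under all 4 stresses. Its call under PQ+HL+HS (0.11) was lost without CT replicate 2 or treatment replicate 1 (adjusted p = 0.14 and 0.065 by limma), and that of PIP1;3 under Salt+PQ+HL (0.12) without treatment replicate 2 (0.066).

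PIP1;5 stood apart from its branch in being lower under HL. It was at 11969, 11843 and 12488 normalised counts in CT and at 7060, 6912 and 7206 under HL, 0.584 of the control (log2 -0.78 ± 0.031, limma adjusted p = 2e-25). It was also lower under PQ, at 9459 to 10722 (-0.25 ± 0.031). Under HS it was at 21144 to 22062, higher by 0.83 ± 0.031, and under HL+HS it was at 24390, 24603 and 25463, higher by 1.04 ± 0.031. With the size factors, HL and HL+HS therefore bracket its whole range. With equal library totals the median of all genes was -0.87 under HL+HS and -0.08 under HS. PIP1;5 therefore stood highest under HL+HS only on the scale of the size factors. Under Salt it was at 12470 to 12875 and not called (0.06, adjusted p = 0.066), though the call appeared without CT replicate 3 (adjusted p = 0.024) and the sign turned with other scalings.

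PIP2;4, known from roots, was the least abundant of the 10 and followed no other member. It was at 615, 621 and 635 normalised counts in CT. Its highest groups were Salt+PQ+HL, at 1637, 1732 and 1688 (2.70-fold, log2 1.43 ± 0.118, limma adjusted p = 1.4e-13), and PQ+HL+HS, at 1658, 1819 and 1563 (1.43 ± 0.118), 2 of the groups in which the other members changed least. It was lower under HL (395 to 434, -0.59), Salt+HS (408 to 426, -0.58), HL+HS (393 to 564, -0.46) and Salt+HL+HS (330 to 463, -0.65). The root gene sums were 262850 to 270860 under PQ+HL+HS and 220251 to 231049 under Salt+PQ+HL, the highest of all groups, and 52954 to 53620 under HL+HS, the lowest. They were also below the 185593 to 196503 of CT under labels where PIP2;4 was above CT. Under PQ+HS the sums were 71944 to 74189 and PIP2;4 was at 897 to 1250. Under Salt+PQ+HS they were 100669 to 110601, with PIP2;4 at 1055 to 1201. Under Salt they were 101955 to 108969, with PIP2;4 at 1014 to 1068. Under PQ they were 155116 to 171554, with PIP2;4 at 934 to 1121. With libraries scaled to the same total, PIP2;4 was not called under PQ+HS (0.13, limma adjusted p = 0.30) or Salt+PQ+HS (0.08, adjusted p = 0.50). The part of the root genes in the PIP2;4 values was not tested.

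PIP2;8 was the only member with no call of higher. It was at 1206, 1172 and 1255 normalised counts in CT, and it was called lower under 12 labels. Salt (624, 589 and 532) and PQ (591, 570 and 547) put it at 0.480 and 0.470 of CT, with log2 changes of -1.06 and -1.09 ± 0.068. Under HL+HS it was at 217, 262 and 232, 0.196 of the control (log2 -2.35 ± 0.068, limma adjusted p = 3e-31). PQ+HS, Salt+PQ+HS and Salt+HL+HS gave 239 to 275, 245 to 258 and 249 to 258, with changes of -2.20, -2.26 and -2.25, and did not overlap with any other group outside those 4. HS alone gave 801 to 890 (-0.52). It was not called under Salt+PQ+HL, PQ+HL+HS or all 4 stresses (-0.15, -0.04 and -0.11, adjusted p = 0.084, 0.77 and 0.17 by limma). edgeR and DESeq2 called the first of these (adjusted p = 0.042 and 0.048), and a fit of only the groups compared called the first and the last.

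**Figure D4:**
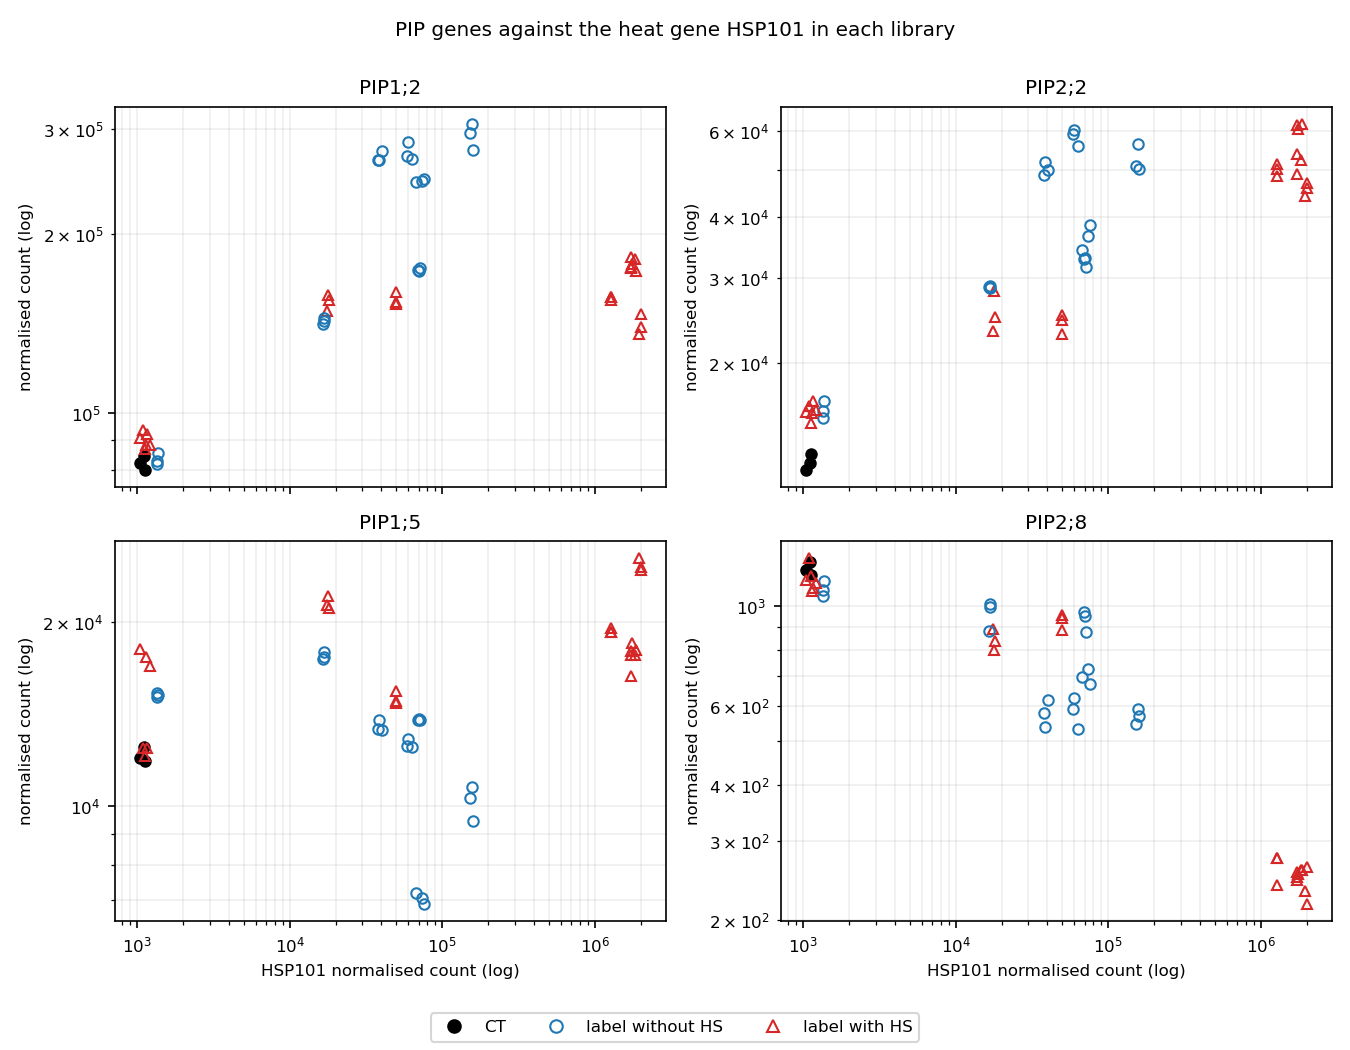
PIP1;2, PIP2;2, PIP1;5 and PIP2;8 (vertical, normalised counts, log axis) against the heat gene HSP101 (horizontal, log axis) in each of the 48 libraries. Black dots are CT, blue circles have a label without HS and red triangles a label with HS. Red triangles fall at both ends of the horizontal axis, and PIP2;8 is at 217 to 275 in the 12 libraries with the most HSP101.

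The make-up of the PIP pool was described as each gene's share of the summed reads per kilobase of the 10 within a library, which does not depend on scaling between libraries. The PIP1 branch made up 56.9 ± 0.28% (SD, n = 3) in CT. It made up 54.0 ± 0.28% under Salt, 51.3 ± 0.51% under PQ and 43.6 to 44.6% under Salt+PQ+HS. It was at 56.1 to 59.6% in the 3 combinations with little response. The share of PIP2;1 was 22.8 ± 0.26% in CT and 35.4 ± 0.37% under Salt+HL+HS, that of PIP2;2 5.24 ± 0.25% and 10.8 ± 0.13% under Salt+PQ+HS. The share of PIP1;5 was 5.13 ± 0.031% in CT and 1.23 ± 0.046% under HL.

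**Figure D5:**
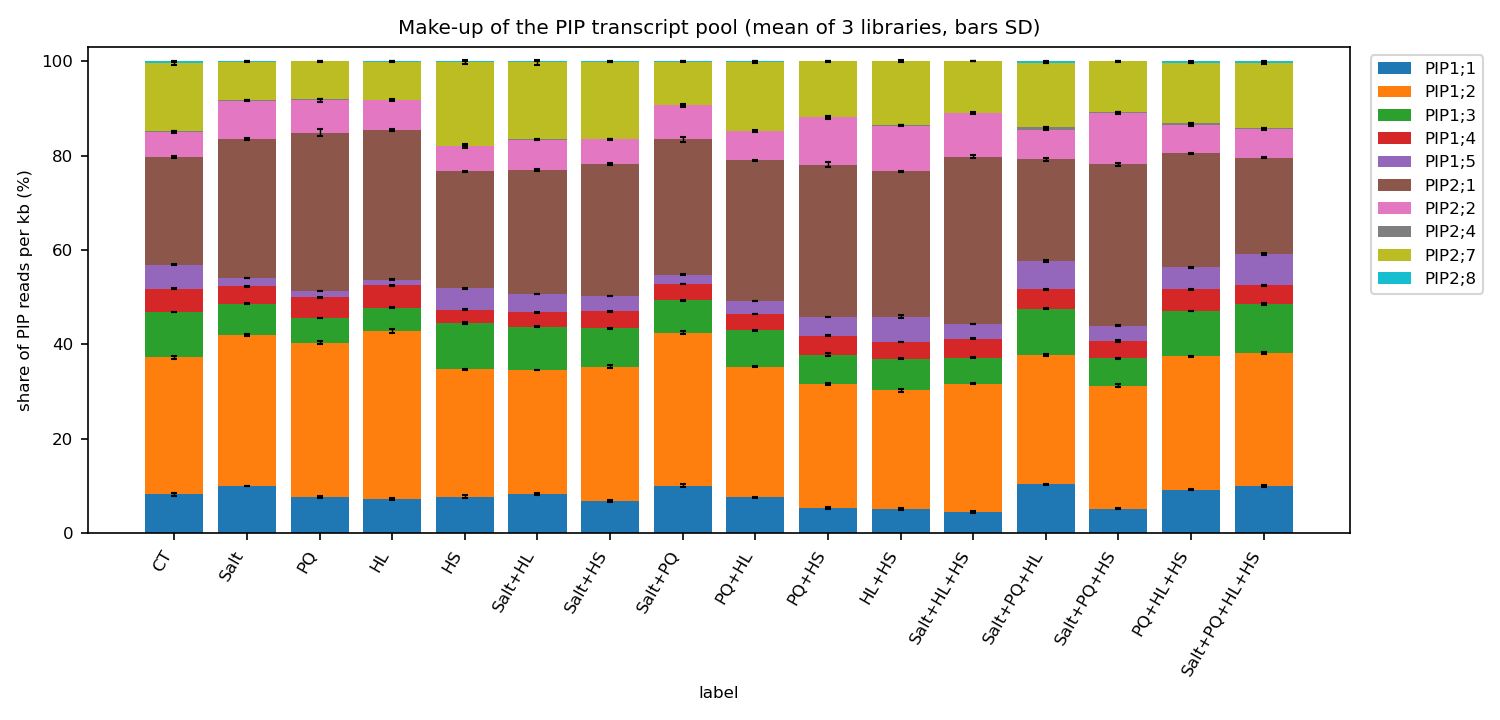
Share of each gene in the summed PIP reads per kilobase within a library (vertical, percent, mean of 3 libraries, bars SD) by label. The PIP1 genes, stacked at the bottom, fall from 56.9% in CT to 44.0% under Salt+PQ+HS and 44.3% under Salt+HL+HS, and the PIP2;1 band widens from 22.8 to 35.4%.

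The 10 genes together took 4417 ± 54.0 of each 1000000 reads (SD, n = 3) in CT. They took 11633 ± 208 under Salt and 11451 ± 346 under PQ, but only 4735 ± 124 under HL+HS, where the 6 heat genes summed to 4786083 normalised counts, and 4803 ± 16.8 under all 4 stresses. On the normalised scale HL+HS stood well above CT, at 533296 to 566571 against 275583 to 287513. The result for the sum under HL+HS therefore rests on the scaling.

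Adding a stress to another asks what each contributes in combination, without the control. Each stress was added to 7 backgrounds, which gives 70 pairs of a gene and a background. The calls are given below as members higher and lower, each with the percentages of all tested genes called higher and lower in the same comparison.

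Adding HL made 44 of the 70 pairs lower (62.9%) and 21 higher (30.0%). There were 3 higher and 6 lower on Salt (32.9% and 32.6%), 3 and 5 on PQ (30.5% and 31%), 3 and 7 on Salt+PQ (38.3% and 39.6%) and 4 and 6 on HS (40.2% and 41.3%). There were 5 and 4 on Salt+HS (40.6% and 41.3%), 2 and 8 on PQ+HS (42.3% and 42%) and 1 and 8 on Salt+PQ+HS (42.7% and 42.4%). PIP1;1 was lower with HL in 7 of 7 backgrounds, and PIP1;2 and PIP1;3 in 6.

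Adding HS made 37 lower (52.9%) and 20 higher (28.6%). There were 3 higher and 7 lower on Salt (33.4% and 32.2%), 1 and 6 on PQ (38% and 37.2%), 3 and 5 on Salt+PQ (39.9% and 39.8%) and 4 and 5 on HL (40.4% and 41.8%). There were 4 and 5 on Salt+HL (42.2% and 41.3%), 2 and 8 on PQ+HL (34.3% and 35.8%) and 3 and 1 on Salt+PQ+HL (15.4% and 14.5%). PIP1;1 was again lower, in 6 of 7, but PIP1;5 was higher in 5. With equal library totals or quantile normalization the pairs higher came down to 10 and 12, and the shares of all genes are not given for these settings.

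Adding PQ made 37 lower (52.9%) and 24 higher (34.3%). There were 2 higher and 3 lower on Salt (10.8% and 10.6%), 5 and 4 on HL (29.8% and 30.6%), 2 and 8 on Salt+HL (32.1% and 34.7%) and 4 and 5 on HS (39.4% and 39.2%). There were 6 and 4 on Salt+HS (40.4% and 39%), 2 and 7 on HL+HS (42.8% and 43.3%) and 3 and 6 on Salt+HL+HS (43.5% and 42.9%). PIP2;4 was higher with PQ in 6 of 7 backgrounds.

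Adding Salt made 26 lower (37.1%) and 24 higher (34.3%), the most even split of the 4 stresses. There were 3 higher and 4 lower on PQ (28.7% and 30.1%), 5 and 5 on HL (34.2% and 33.6%), 3 and 7 on PQ+HL (35% and 37.4%) and 2 and 5 on HS (23.4% and 23.1%). There were 4 and 1 on PQ+HS (26.2% and 27.7%), 4 and 1 on HL+HS (27.9% and 26.8%) and 3 and 3 on PQ+HL+HS (26% and 26.6%). PIP2;8 was higher with Salt in 2 backgrounds and lower in none.

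Many of these calls involve the 3 combinations with control-level heat genes. Without the comparisons that hold them, HL made 21 of 40 lower (52.5%) and 15 higher (37.5%). In the comparisons kept, 31 to 41.3% of all genes were lower and 30.5 to 40.6% higher. HS made 28 of 50 lower (56.0%) and 15 higher (30.0%), beside 32.2 to 41.8% and 33.4 to 42.2% of all genes. PQ made 16 of 40 lower (40.0%) and 17 higher (42.5%), beside 10.6 to 39.2% and 10.8 to 40.4%. Salt made 16 of 50 lower (32.0%) and 18 higher (36.0%), beside 23.1 to 33.6% and 23.4 to 34.2%. PIP1;1 then was lower with HL in 4 of 4 backgrounds and with HS in 5 of 5, and PIP1;5 was higher with HL in 4 of 4 and with HS in 4 of 5. These counts use the size factors and are not given for equal library totals. With equal totals the median of all genes against CT was -0.87 under HL+HS and -0.84 under Salt+HL+HS. It was -0.08 under HS and -0.12 under Salt+HS. PIP1;5 was then at -0.32 against CT under Salt+HL+HS. For PIP1;1 the addition of HS to PQ gave -1.11 ± 0.041 and to Salt+PQ -1.27 ± 0.041. For PIP1;5 the addition of HS to HL gave 1.81 ± 0.031.

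The test of whether 1 stress changed the effect of another was called for 9 or 10 of the 10 genes in each pair of stresses, and for 68.2 to 78.6% of all tested genes. The interaction of Salt and PQ was below the sum of the single log2 changes in 8 genes and above it in 2 (37.3% and 35.6% of all genes), that of Salt and HL in 7 and 3 (39.5% and 39%), and that of Salt and HS in 9 and 1 (38.3% and 35.3%). PQ and HL gave 6 and 3 (38.9% and 38.2%), PQ and HS 8 and 1 (34.7% and 33.4%), and HL and HS 8 and 1 (39.1% and 35.5%). For PIP2;1, which was 1.97 under Salt and 1.77 under HL but 1.14 under both, the interaction was -2.59 ± 0.050. For PIP2;8, which was less low under both (-0.33) than under either alone (-1.06 and -0.80), it was 1.52 ± 0.096. HL and HS together went the other way for this gene, with -1.03 ± 0.096. PIP1;5 was -0.78 under HL, 0.83 under HS and 1.04 under both, with an interaction of 0.98 ± 0.044.

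The effect of a stress added to the other 3 was also set against its effect alone, a comparison in which the libraries labelled with all 4 stresses always enter. It was lower in 8 members and higher in 2 for Salt (36.7% and 34.9% of all genes), in 7 and 3 for PQ (43.3% and 43.7%), in 7 and 2 for HL (42.9% and 43.1%) and in 9 and 1 for HS (31.4% and 27.5%). The largest values were those of PIP2;1 for PQ (-4.07 ± 0.050) and, in the other direction, of PIP2;8 for PQ (3.22 ± 0.096) and HL (2.94 ± 0.096). The latter gene was at -2.25 under Salt+HL+HS and at -0.11 with PQ added to it.

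The other 25 aquaporin genes cover 3 further PIPs, the vacuolar TIPs, the nodulin-like NIPs, which carry small solutes and metalloids, and the SIPs of the endoplasmic reticulum. Of these 22 could be tested. Over 15 treatments the tested TIP pairs were mostly higher, 85 of 120 with 18 lower, as were those of the other PIPs, 39 of 45 with 3 lower, beside 35.1% higher and 34.4% lower over all tested genes. Of the NIP pairs 53 of 120 (44.2%) were lower and 23 (19.2%) higher, and of the SIP pairs 27 of 45 were lower and 14 higher. The extremes named next leave out PIP2;3, which rose more in each single stress, and genes with a mean under 50 normalised counts. The largest called rise was then that of TIP2;3, a tonoplast channel known to pass ammonia, under Salt (3.55 ± 0.134), PQ (2.65) and HS (2.06). Under HL it was that of TIP1;1, the main vacuolar channel (1.88 ± 0.056). The largest called falls were SIP1;2 under Salt (-2.06 ± 0.092), NIP1;1, which can carry arsenite, under PQ (-1.58) and HL (-1.12), and TIP4;1 under HS (-1.42).

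Of 5 genes for PIP trafficking or regulation, 54 of 75 pairs (72.0%) were higher and 8 (10.7%) lower, with the same 35.1% and 34.4% over all genes. TSPO, which targets PIP2;7 for degradation by autophagy, was higher by 3.47 (Salt), 4.33 (PQ), 4.16 (HL) and 1.47 (HS) on the log2 scale. SYP121, a syntaxin that delivers PIPs to the plasma membrane, was higher by 0.49 to 0.83 under the single stresses. SYP61, its partner, was called lower under Salt (-0.12) and higher under HS (0.22), and not called under PQ or HL (-0.01 and -0.04). OST1, a kinase that phosphorylates PIP2;1 in guard cells, was higher by 0.76 (Salt), 0.68 (PQ), 0.84 (HL) and 0.33 (HS). RMA1, a ubiquitin ligase that acts on PIP2;1, was higher under Salt (0.37) and HS (1.11), lower under HL (-0.36) and not called under PQ (-0.09).

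Over the 16 group means of log2 level several members ran together, which is given as a description, since all genes come from the same libraries. PIP1;2 correlated with PIP1;4 (Pearson r = 0.95, n = 16 groups) and PIP2;1 (0.95), and PIP2;1 with PIP2;2 (0.95). PIP1;3 went with PIP2;7 (0.83). PIP2;2 and PIP2;8 ran opposite (-0.82), and PIP1;5 and PIP2;4 had no r above 0.34 with any other member. Of 19244 genes compared, the 5 whose pattern was most like the mean of the 10 were WRKY45 (AT3G01970, a WRKY transcription factor, r = 0.94), PAP26 (AT5G34850, an acid phosphatase, 0.94), AT4G20880 (0.94), AT1G06050 (0.93) and MSL5 (AT3G14810, a mechanosensitive channel-like gene, 0.93).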

How the data were processed

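RNA of 48 libraries was measured. Per the submitters' processing notes, FastQC 0.11.7 was used for read quality, STAR 2.4.0.1 for alignment, TAIR10 as the genome and DESeq2 1.20.0 for normalization. The signal values deposited by the authors are reads divided by 1 size factor per library. Dividing by the smallest step gave whole reads in 100% of cases (tolerance 0.001), so the reads were recovered. Samples were grouped by their labels.

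A mean of at least 10 normalised counts kept 21536 of 32833 genes. The main test was limma 3.58.1 (R 4.3.3, prior variance following the mean level) on log2(normalised count + 1), fitted once over the 16 groups, with Benjamini-Hochberg adjustment per comparison and calls under 0.05. It was tested on simulated data. The study's methods call the 3 samples of a group biological replicates. Alternatives were other pseudocounts (0.1 and 10), no filter, other scalings, edgeR 4.0.16 and DESeq2 1.42.0 on the recovered reads, fits of only the groups compared, a replicate block, leaving out libraries, and a fold change of at least 2.

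Sequences were read from TAIR10.1 with its RefSeq annotation, in which 32548 of the 32833 identifiers were found. Per-kilobase levels use the merged exons. The members and lists were chosen with earlier results of these data known. The text names the 10 members, PIP2;3, the other aquaporin with the largest called rise and fall in each single stress (mean of at least 50), and the 5 genes most correlated with the mean of the members. HSP101, ELIP1, RD29A, EXPA7, COBL9, TSPO, SYP121, SYP61, OST1 and RMA1 were named in addition, after their values were seen. Treatments with cadmium or acidity are not analysed here.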

Additional observations from a re-analysis of the deposited data

Results flagged for a closer look

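Members were called by limma in each test of whether a response differed with the other stresses present, and so were most of all tested genes, 68.2 to 78.6% for pairs of stresses and 58.9 to 87% for a stress with the other 3. With pairs of stresses, 10 members were called for Salt and PQ, 10 for Salt and HL, 10 for Salt and HS, 9 for PQ and HL, 9 for PQ and HS, and 9 for HL and HS. The effect of a stress added to the other 3 differed from its effect alone in 10 members each for Salt, PQ and HS, and in 9 for HL. The median over the 10 members ran from -0.89 to -1.60 on the log2 scale, with the largest single value for PIP2;1 at -4.07 (PQ and the other 3).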

How the results depend on the processing

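Of the 10 genes, PIP2;1, PIP2;2, PIP2;4 and PIP2;8 kept their direction in every called comparison with CT under all alternatives tried. The calls of PIP2;4 under PQ+HS (0.13) and Salt+PQ+HS (0.08) were nevertheless lost with libraries scaled to the same total. With libraries scaled to the same total, the log2 changes reversed for PIP1;1 under PQ+HS (-0.19), Salt+PQ+HS (-0.22), HL+HS (-0.56) and Salt+HL+HS (-0.50), PIP1;2 under HL+HS (-0.0938), PIP1;3 under PQ+HS (-0.19), Salt+PQ+HS (-0.27), HL+HS (-0.41) and Salt+HL+HS (-0.43), PIP1;4 under HL+HS (-0.35), PIP1;5 under Salt (-0.13), Salt+PQ (-0.0438), Salt+PQ+HS (-0.20) and Salt+HL+HS (-0.32), and PIP2;7 under Salt+HL+HS (-0.0142). With quantile normalization they reversed for PIP1;1 under PQ+HS (-0.21), Salt+PQ+HS (-0.20), HL+HS (-0.49) and Salt+HL+HS (-0.43), PIP1;2 under PQ+HS (-0.10), HL+HS (-0.36) and Salt+HL+HS (-0.0333), PIP1;3 under HL (-0.0164), PQ+HS (-0.29), Salt+PQ+HS (-0.32), HL+HS (-0.45) and Salt+HL+HS (-0.46), PIP1;4 under HL+HS (-0.18), PIP1;5 under Salt (-0.19), Salt+PQ (-0.11), Salt+PQ+HS (-0.0278) and Salt+HL+HS (-0.12), and PIP2;7 under HL (-0.0575), PQ+HS (-0.19), Salt+PQ+HS (-0.26), HL+HS (-0.32) and Salt+HL+HS (-0.34). The cause was not tested.

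Counts of members called moved as follows. At the same total, those higher were 5 (PQ+HS), 3 (Salt+PQ+HS), 3 (HL+HS) and 4 (Salt+HL+HS), those lower 2 (Salt), 2 (Salt+PQ), 3 (PQ+HS), 4 (Salt+PQ+HS), 6 (HL+HS) and 5 (Salt+HL+HS), and the pairs higher with HS added 10. With quantile normalization those higher were 5, 4, 3 and 3, those lower 2, 2, 5, 4, 7 and 6, and the pairs with HS added 12, in the same order. At the same total, 11037 (Salt) and 11043 (Salt+PQ) of all 21536 genes were lower. Under PQ+HS, Salt+PQ+HS, HL+HS and Salt+HL+HS, 3106 to 4048 of them were higher and 15453 to 16951 lower. Under Salt+PQ+HL 2 were lower with edgeR, with DESeq2 and with only the groups compared, and with the last also 2 under all 4 stresses. At a fold change of at least 2, which 1.02 to 15.4% of all genes passed as higher and 0.594 to 17.3% as lower, those higher were 6 (Salt), 6 (Salt+PQ), 5 (HL), 5 (PQ), 3 (Salt+HL), 5 (PQ+HL), 4 (HS), 2 (Salt+HS), 2 (PQ+HS), 3 (Salt+PQ+HS), 3 (HL+HS), 3 (Salt+HL+HS), 1 (Salt+PQ+HL), 1 (PQ+HL+HS) and 0 (all 4), and those lower 1 (PQ), 1 (HL+HS), 1 (Salt+HL+HS) and 0 under HL, HS, Salt+HL, PQ+HL, Salt+HS, Salt+PQ+HL and all 4. Pairs higher and lower with a stress added came down to 2 and 4 (Salt), 7 and 11 (PQ), 4 and 12 (HL) and 2 and 13 (HS). Shares of all genes are not given for these pairs, nor for the pairs with HS added under other scalings. They are also not given for quantile normalization, edgeR, DESeq2 or fits of only the groups compared. Those counts describe the members alone.

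With 1 library left out of CT or 1 replicate number left out of every treatment, the members higher stayed at 8 to 9 under Salt, 4 to 5 under Salt+PQ+HL, and 6 to 7 under PQ+HL+HS and all 4 stresses. Replicate numbers did not pair the libraries (mean correlation of deviations -0.00029, range -0.258 to 0.134, and 11 of 48 libraries correlated best with their own number), and the replicate block changed no call of a member, with 8 higher under Salt and 8 under PQ as without it. The lowest count of reads for a member in a library was 129, and whether depth limited any call was not tested. PIP2;4 and PIP2;8, the least abundant members in CT, had the highest median coefficients of variation, 7.21 and 4.70%.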
